A study of Mus musculus with 4 samples.

Results

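Blood vessel, lymphatic and pericyte genes were followed in newborn mouse ureter. They are 38 genes chosen by what they are known to do, at a time when earlier results of these data were known. Every probe set annotated to exactly 1 of these symbols was taken, whatever its level. That gave 66 probe sets for 38 of 18193 genes on the array. A probe set is a group of short probes that reads 1 transcript or a few. The genes fall into surface and junction proteins of endothelium (8), a VEGF ligand and VEGF receptors (4), angiopoietins and Tie receptors (4), endothelial transcription factors (5), the receptors Acvrl1 and Eng (2), secreted factors and a nitric oxide synthase (3), peptide and lipid signalling (5), lymphatic genes (3) and mural cell genes (4).

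Transcripts were measured on 3 arrays of whole ureter and 1 array of a whole-mouse reference. The ureters were dissected from male FVB/N mice at postnatal day 1 (Theiler stage 27) that carried an SMGA/EGFP transgene, and were not pooled. EGFP is a green fluorescent reporter, and the labels do not spell out the promoter or the cells that express it. The reference was a pool of whole FVB/N animals of both sexes and the same age, with no transgene given. Tissue, transgene, sex and pooling therefore change together and cannot be told apart. RNA of all samples went through 2 rounds of amplification. Whether each ureter array stands for its own animal is not stated in the labels, so the p-values reflect only how these 3 arrays vary, which may be technical variation. The single reference array was assumed to vary like the ureters.

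Blood vessels are lined by endothelial cells, which are held together by junction proteins such as VE-cadherin (Cdh5) and PECAM-1 (Pecam1) and are kept alive and patterned by VEGF acting on Kdr and Flt1 and by angiopoietins acting on Tek. ETS factors such as Erg and Fli1, with the Sox factors Sox7, Sox17 and Sox18, hold the endothelial programme in place. Lymphatic vessels arise when venous endothelial cells switch on Prox1 and respond to VEGF-C through Flt4. Pericytes and vascular smooth muscle, together called mural cells, wrap the endothelium and depend on the receptor Pdgfrb. The ureter wall carries a network of small vessels and lymphatics in the layers around its urothelium.

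The labelled tissue carried its own markers. Urothelial markers were called higher at 7 of 8 genes and summed to 164678, 108203 and 127168 in the ureters and 15346 in the reference. Smooth muscle markers were called higher at 7 of 8 and summed to 151807, 176208 and 176448 in the ureters and 62521 in the reference. Nephron and podocyte markers split the ureters, with summed levels of 904, 10269.5 and 5014 in the ureters and 6982 in the reference, and 0 of 6 tested were called. Replicate 1 was lowest of the ureters at 6 of the 7 nephron and podocyte genes measured, and in it Umod, Slc34a1 and Slc12a1 did not exceed the array's background controls. Results that differ between the ureters are therefore given array by array.

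Values below are intensities after quantile normalization, and a difference is the mean of the 3 ureters minus the reference on the scale log2(intensity + 12.23) and is given ± its standard error (SE) in the limma model. Because of the added offset, folds of dim genes come out too small. A gene was read at its brightest probe set, and called when limma's p, adjusted over all 27022 probe sets tested, was under 0.05. In whole tissue, fewer cells of a type and less RNA per cell cannot be told apart.

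The sequences upstream of the start site are shown for the called genes that have an entry, Tek and Prox1, and for Tie1, the partner receptor of Tek. RefSeq promoter windows were found for 19 of the 38 genes, and Sox17 was not among the matches. Each line gives the 250 bases before an annotated start, 5′ to 3′ on the gene's strand, from GRCm38.p6, with matches to the ETS core GGAA or its reverse complement TTCC in capitals.
Tek, chr4:94739039-94739288, + strand: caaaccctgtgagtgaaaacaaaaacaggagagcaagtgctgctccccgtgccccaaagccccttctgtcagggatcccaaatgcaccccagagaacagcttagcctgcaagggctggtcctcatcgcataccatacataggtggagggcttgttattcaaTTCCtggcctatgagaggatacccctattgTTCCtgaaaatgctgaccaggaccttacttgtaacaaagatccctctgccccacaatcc
Tie1, chr4:118489850-118490099, - strand: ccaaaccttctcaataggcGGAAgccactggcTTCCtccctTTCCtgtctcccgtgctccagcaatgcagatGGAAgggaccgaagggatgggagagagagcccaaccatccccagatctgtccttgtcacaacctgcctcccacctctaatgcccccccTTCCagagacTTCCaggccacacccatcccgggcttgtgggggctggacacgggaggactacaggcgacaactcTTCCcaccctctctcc
Prox1, first start, chr1:190170828-190171077, - strand: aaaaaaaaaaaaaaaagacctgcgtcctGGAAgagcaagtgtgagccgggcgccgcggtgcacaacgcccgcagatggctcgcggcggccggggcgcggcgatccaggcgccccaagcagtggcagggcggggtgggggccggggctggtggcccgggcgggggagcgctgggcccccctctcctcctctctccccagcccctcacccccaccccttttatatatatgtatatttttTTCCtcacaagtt
Prox1, other start, chr1:190169516-190169765, - strand: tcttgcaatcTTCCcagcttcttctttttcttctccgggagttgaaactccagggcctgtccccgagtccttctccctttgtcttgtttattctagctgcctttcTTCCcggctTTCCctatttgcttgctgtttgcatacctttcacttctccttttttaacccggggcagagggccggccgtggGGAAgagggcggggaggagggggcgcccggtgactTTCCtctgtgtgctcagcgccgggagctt
The ETS core occurred 2 times before Tek, 7 times before Tie1 and 2 and 5 times before the Prox1 starts, counted on both strands. This short word is in 93.4% of all 32851 windows of the same length. The longer word AGGAAG, or CTTCCT, which contains the core, occurred before Tie1 at 1 place and before Tek or Prox1 at 0, and is in 29.5% of all windows. The SOX core ACAAT, or ATTGT, occurred 2 times before Tek, 1 of them overlapping an ETS core match, and 0 times in the other windows shown, and is in 27.7% of all windows. These matches describe letters only.

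Most vessel genes lay near the level of the whole body or somewhat above it, and few differed beyond the error of the fit. Of the 38 genes, 37 were bright enough to be tested, 2 were called higher in the ureters (Tek and Sox17), 1 was called lower (Prox1) and 34 did not pass. Counted by probe set, 2 of the 55 tested were called higher and 1 lower, where 2.68% and 3.49% of all probe sets tested were. Over all genes tested by the same rule, 2.94% were called higher and 4.77% lower, against 5.41% and 2.7% of the vessel genes, so the vessel genes were called about as often as genes at large. Counts of calls in the small groups below are to be read beside these shares of all genes. At an unadjusted p under 0.05, 7 vessel genes were higher and 1 lower, where 13.8% and 12.5% of all genes tested were.

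All 3 ureters lay above the reference for 20 of the 38 genes (52.6%, against 37.7% of all genes and 39.9% of those tested) and all 3 below it for 3 (7.89%, against 29.3% and 30.7%). The 3 below were Prox1, Acvrl1 and S1pr1. The median difference of the 38 was 0.48, beside 0.10 for all genes. How the arrays are scaled moves both medians: as deposited they were 0.31 and -0.15, and with each array centred on its median 1.04 and 0.58. The number of vessel genes with a positive difference was 28 as normalized here, 25 as deposited and 35 with median-centred arrays. The levels themselves were mostly well measured, since 36 of the 38 genes (94.7%) exceeded the background controls on all 4 arrays, against 62.9% of all genes and 83.4% of those tested.

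**Figure D1:**
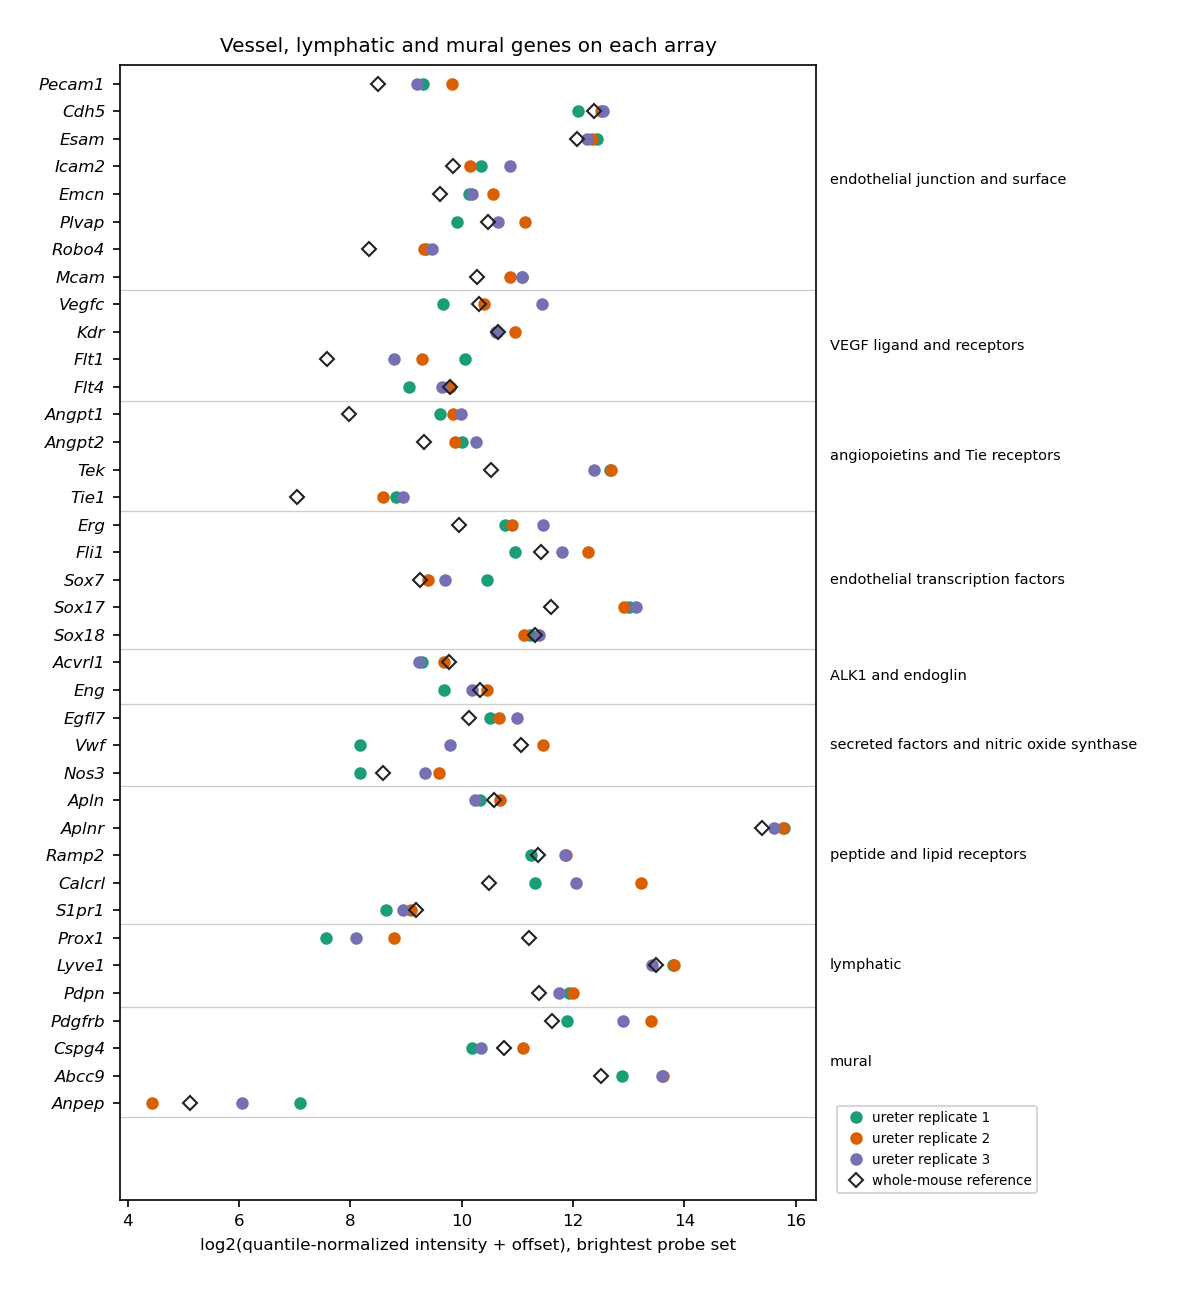
Level of each of the 38 genes on every array, as log2(quantile-normalized intensity + 12.23) at the brightest probe set, grouped by role; filled circles are the 3 ureters and open diamonds the reference. Tek and Sox17 have all 3 ureters to the right of the reference with little spread, Prox1 has all 3 to the left, and Vwf, Calcrl and Pdgfrb spread widely between ureters.

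Among the Tie receptors and their ligands, Tek rose and had the largest difference above 0 of the 38 genes. Tek, the angiopoietin receptor also known as Tie2, read 6460.4, 6563 and 5277 in ureter replicates 1, 2 and 3 and 1463 in the reference. Every ureter was far above the reference and the ureters differed among themselves by at most 1.24-fold. The ureter mean was 12.57 ± 0.18 (SD, n = 3) on the log2 scale, 2.04 ± 0.32 above the reference (4.12-fold, limma adjusted p = 0.0236). In replicate 1, where nephron markers were lowest, the difference was 2.13. The call ended without ureter replicate 3 (adjusted p = 0.101) and when the variance prior had no intensity trend (0.0625), while the difference stayed between 1.95 and 2.71 under all alternatives run.

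Tie1, the orphan receptor that modulates Tek signalling, had ureter values of 441, 373 and 477 against 119 in the reference. The reference value was not above background, so the ureters were at least 3.17-fold higher, yet the gene did not pass (1.74 ± 0.50, adjusted p = 0.1001). Angpt1, the agonist ligand of Tek that mural cells release, gave 765, 910.5 and 1006 in the ureters and 240.4 in the reference. No ureter overlapped the reference, and the difference of 1.83 ± 0.43 missed the threshold (adjusted p = 0.0626). A dimmer Angpt1 probe set was at background in every array and was not tested. Angpt2, the context-dependent ligand stored in endothelial cells, read 1017, 928 and 1207 against 628, a difference of 0.72 ± 0.41 (adjusted p = 0.340). With this normalization 4 of 4 genes of this system lay above the reference in every ureter and 1 of them passed. The same holds in every ureter for 52.6% of the 38 genes, 37.7% of all genes and 39.9% of those tested.

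Among the endothelial transcription factors, 1 of the 3 SoxF genes was called. Sox17, which is linked to arterial identity, read 8223, 7711 and 8893 in ureter replicates 1, 2 and 3 and 3116 in the reference. The ureters stood together, within 1.15-fold of each other, and well above the reference. The ureter mean of 13.01 ± 0.10 (SD, n = 3) was 1.40 ± 0.28 higher (2.65-fold, adjusted p = 0.0411). That probe set has an identifier ending in x_at, which on these arrays marks probes that can also match other transcripts, and the other Sox17 probe set, much dimmer, did not pass (259.7, 132 and 313 against 131, 0.71 ± 0.70, adjusted p = 0.598). The call was lost without ureter replicate 1 (adjusted p = 0.0614), without replicate 3 (0.195), with all probe sets averaged (0.138), without the filter on dim probe sets (0.0549), with median-centred arrays (0.0634) and without the intensity trend (0.109).

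The relatives of Sox17 gave other values. Sox18, which acts in lymphatic as well as blood endothelium, had ureter intensities of 2367, 2208 and 2665 against 2540.3 in the reference. These overlap, with a difference of -0.078 ± 0.35 (adjusted p = 0.922), and it became 0.68 with median-centred arrays. Sox7 was 1389, 659 and 820.3 against 599, high in replicate 1 and near the reference in replicate 2 (0.59 ± 0.53, adjusted p = 0.558). Whether the SoxF genes differ from one another in their response was not tested. The ETS factor Erg read 1732, 1890.0 and 2805 in the ureters and 972 in the reference. All 3 ureters were higher, replicate 3 most, but the gene did not pass (1.10 ± 0.43, adjusted p = 0.191). Fli1, a close relative of Erg also used in blood cells, spread 2.50-fold between ureters (1967, 4937 and 3557 against 2731) and its difference of 0.25 ± 0.55 turned to -0.047 without replicate 2.

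**Figure D2:**
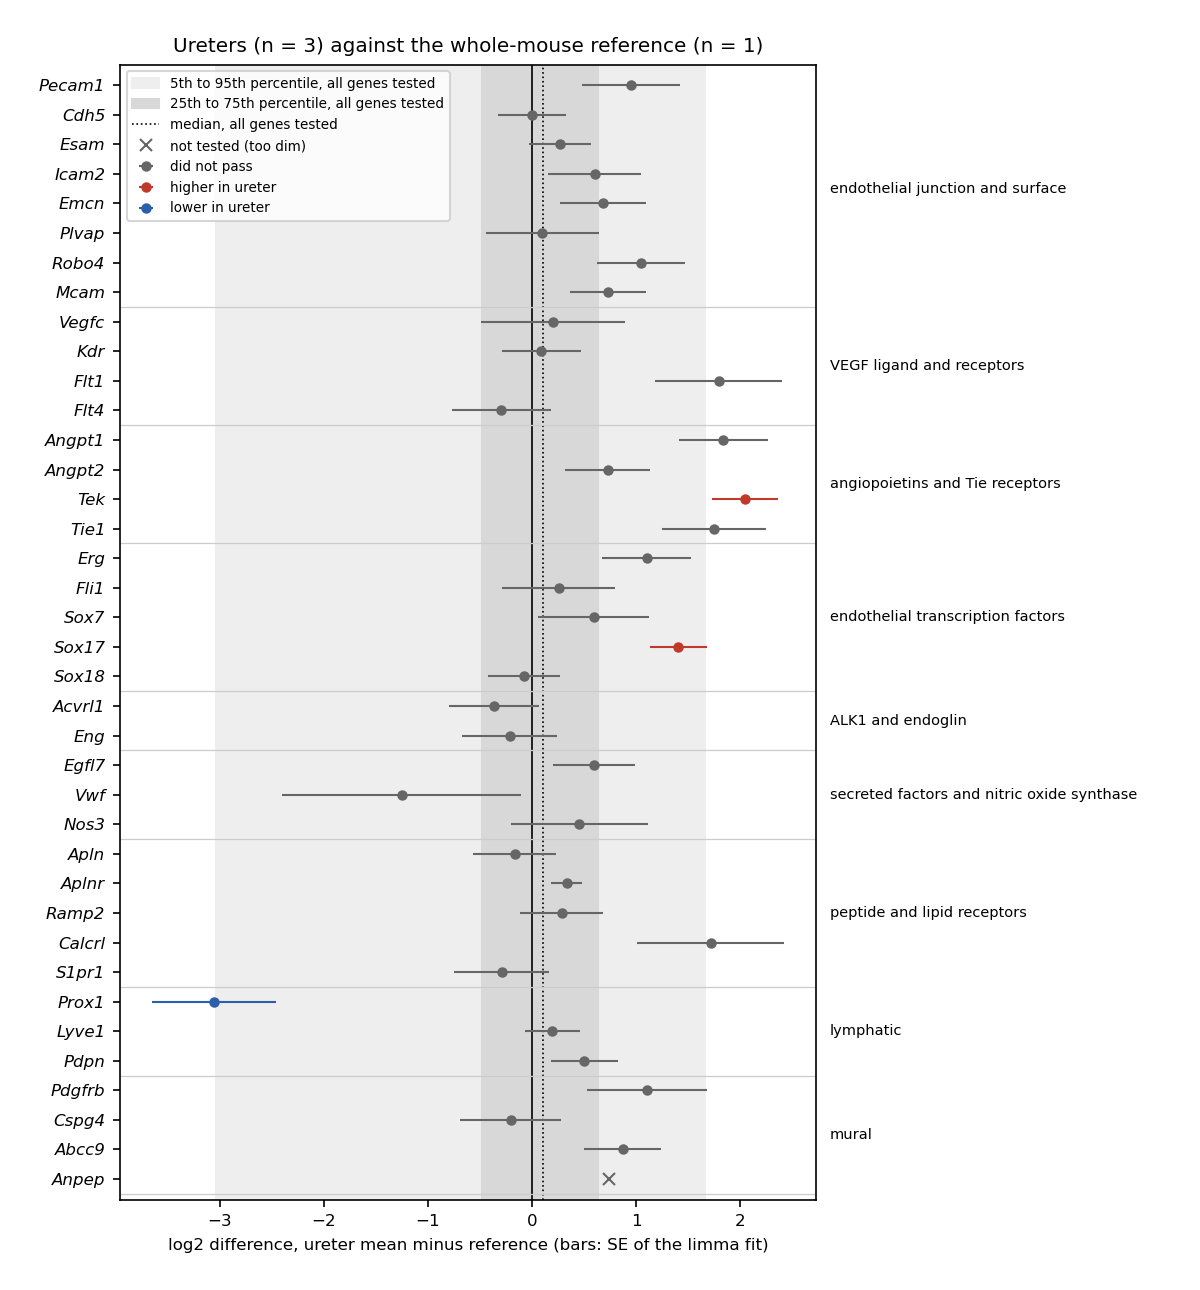
Log2 difference, ureter mean (n = 3) minus reference (n = 1), for each of the 38 genes with the SE of the limma fit; grey bands span the 5th to 95th and 25th to 75th percentile of all genes tested and the dotted line is their median. Tek (2.04) and Sox17 (1.40) are the red points, Prox1 (-3.06) is the blue one, and Anpep, too dim to be tested, is a cross.

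None of the 3 VEGF receptors passed, nor did Vegfc. Kdr, the main signalling receptor for VEGF-A on endothelium, read 1581, 1979 and 1546 in ureter replicates 1, 2 and 3 and 1589 in the reference. Replicates 1 and 3 lay just under the reference and replicate 2 was a little higher, for a difference of 0.089 ± 0.38 (adjusted p = 0.918) that was -0.018 as deposited and -0.024 without replicate 2. Flt1, the high-affinity receptor that also works as a VEGF trap, gave 1057, 615 and 426 in the ureters and 180.1 in the reference. Its ureters were all higher but 2.44-fold apart, and 1.79 ± 0.61 did not pass (adjusted p = 0.144). The other Flt1 probe sets that were tested gave 0.45 and 0.43, so the size of the Flt1 difference depends on the probe set. Flt4, the VEGF-C receptor of lymphatic endothelium, read 517, 874 and 786 against 873 (-0.30 ± 0.48, adjusted p = 0.759). Its sign turned under median-centred arrays (0.085) and with its probe sets averaged (0.87). The dimmer Flt4 probe set, which was not tested, read 200, 172 and 159 in the ureters against 33.5. It was at background in replicate 2 and in the reference, so the sign for Flt4 is not settled.

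Vegfc, the lymphatic growth factor, varied widely between the ureters. At its brightest probe set it read 802, 1342 and 2779 in the ureters and 1252 in the reference, and replicate 3 exceeded replicate 1 by 3.43-fold. The other probe sets ranked the ureters the same way, at 618, 639 and 1540.3 against 630.4 and at 766, 1057 and 2025 against 1299. All 3 probe sets therefore put replicate 3 highest, and the reference lay inside the ureter range at each. Differences of 0.20, 0.42 and -0.14 did not pass, and the brightest turned to -0.26 without replicate 3.

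The surface and junction genes that define endothelium were all above background in the ureters, and 0 of 8 passed. Pecam1, an adhesion molecule of endothelial junctions also found on platelets and leukocytes, read 621, 891 and 573 in ureter replicates 1, 2 and 3 and 346 in the reference. No ureter overlapped the reference, and the difference was 0.95 ± 0.47 (adjusted p = 0.282), or 0.38 as deposited. Cdh5, the endothelial cadherin, was one of the brighter genes, at 4354, 5789 and 5945 in the ureters and 5327 in the reference. The reference fell inside the ureter range and the difference was -0.0041 ± 0.33 (adjusted p = 0.996), with a positive sign as deposited (0.10), with median-centred arrays (0.83), without replicate 1 (0.14) and with its probe sets averaged (0.65). Pecam1 and Cdh5 are both used to mark endothelium, and whether their differences are unlike each other was not tested.

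Robo4, a guidance receptor that stabilises vessels, had ureters at 642, 626 and 696 against 311 in the reference. Its ureters were tightly grouped and all higher (1.05 ± 0.42, adjusted p = 0.203). Icam2 (0.60 ± 0.45), the sialomucin gene Emcn (0.68 ± 0.41), the adhesion gene Esam (0.27 ± 0.29) and Mcam, which endothelium and mural cells share (0.73 ± 0.36), also had all 3 ureters above the reference without passing. Plvap, which forms the diaphragms of fenestrated capillaries, was 953, 2234 and 1598 against 1406. Its reference lay between replicates 1 and 3 and replicate 2 was 2.33-fold above replicate 1, so the difference of 0.097 ± 0.54 has no settled sign: it was -0.074 as deposited and -0.19 without replicate 2. Among possible other sources of Pecam1, macrophage markers were called higher at 0 of 8 genes and lower at 1 (summed level 30694, 30339 and 25104 in the ureters and 48408 in the reference), and platelet and megakaryocyte markers at 0 and 1 of 5 tested (summed level 14576, 10840.5 and 11835 in the ureters and 15857 in the reference), with Gp9 at background in every ureter. Pf4 made up most of the platelet sum, at 12450, 9353 and 10375 in the ureters and 10694 in the reference. Of the other platelet genes, Ppbp, Itga2b, Gp5 and Gp9 were lower in every ureter and Gp1bb was higher in every ureter. Erythroid markers were called lower at 4 of 5 tested (summed level 2100.4, 2184 and 2716 in the ureters and 37102 in the reference). Their part in these levels was not tested.

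The co-receptor Eng (endoglin) and the ALK1 receptor Acvrl1, which together read BMP9 and BMP10 in endothelium, did not pass. Acvrl1 read 609, 811 and 590.1 in the ureters and 858 in the reference, with every ureter below the reference (-0.37 ± 0.43, adjusted p = 0.667). Its second probe set gave the opposite sign (0.36 ± 0.44). Eng was 813, 1389 and 1158 against 1273 (-0.22 ± 0.46, adjusted p = 0.823) and also had a probe set of opposite sign (0.47 ± 0.59). No direction can be read for either gene. In all, 6 of the 13 vessel genes with several tested probe sets had differences of both signs, and 0 had calls of both signs.

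Of the secreted factors and the nitric oxide synthase, Vwf and Nos3 were over 2-fold apart between ureters, as 33.1% of all genes were. Egfl7 was 1.40-fold apart. Vwf, the adhesive glycoprotein stored in endothelial and platelet granules, read 277, 2810.0 and 875 in ureter replicates 1, 2 and 3 and 2129 in the reference. Replicate 2 was 9.77-fold above replicate 1, and the reference lay between replicates 3 and 2. The difference of -1.25 ± 1.15 did not pass (adjusted p = 0.565), and its ureter SD of 1.64 was the widest of the 38 genes. Nos3, the endothelial nitric oxide synthase, gave 277, 758 and 634 in the ureters and 371 in the reference. The order of the ureters was the same as for Vwf (0.45 ± 0.66, adjusted p = 0.733), and the sign turned as deposited (-0.17). Egfl7, a matrix protein that endothelium deposits, was 1438, 1613 and 2014 against 1104 (0.59 ± 0.40), and its other probe sets ranged from -0.19 to 1.30, with none called.

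Peptide and lipid signalling gave 0 calls among 5 genes. Aplnr, the apelin receptor, read 56811, 56026 and 49849.7 in the ureters and 43028 in the reference, brighter than 99.6% of all genes. Even here the ureters were all above the reference, by 0.33 ± 0.15 (adjusted p = 0.245), and a dimmer probe set gave 0.55 ± 0.32. Its ligand Apln, released by sprouting endothelium, read 1272, 1639 and 1188 against 1522 (-0.17 ± 0.40), with an overlap of ureters and reference. S1pr1, the sphingosine 1-phosphate receptor that steadies vessels, was 385, 529 and 481 against 568, lower in every ureter without passing (-0.29 ± 0.46, adjusted p = 0.753).

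Calcrl and Ramp2 form the adrenomedullin receptor, which blood and lymphatic vessels need to develop. Calcrl read 2534, 9563 and 4258 in ureter replicates 1, 2 and 3 and 1422 in the reference. Every ureter was higher, but replicate 2 was 3.76-fold above replicate 1, and 1.71 ± 0.71 did not pass (adjusted p = 0.209). Ramp2 was 2413, 3741 and 3673 against 2637 (0.28 ± 0.40, adjusted p = 0.722), with replicate 1 below the reference and the others above. A further 2 probe sets name Ramp2 together with its neighbour Vps25 and were left out. The ligand Adm, adrenomedullin, was called much higher (below).

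Prox1, the transcription factor that makes an endothelial cell lymphatic, was the vessel gene with the lowest difference. It read 176, 431 and 262 in ureter replicates 1, 2 and 3 and 2348 in the reference. Every ureter was several-fold below the reference, although above the background controls of its own array, and the ureters differed up to 2.36-fold. The ureter mean of 8.15 ± 0.62 (SD, n = 3) lay -3.06 ± 0.60 from the reference (8.33-fold lower, adjusted p = 0.0399), close to the 5th percentile of all genes tested (-3.03). Both other Prox1 probe sets were at background on every array and gave no level. The call was lost without ureter replicate 3 (adjusted p = 0.142), as deposited (0.0689), without the filter on dim probe sets (0.0764) and without the intensity trend (0.0705). Under the alternatives that tested Prox1 the difference stayed between -3.44 and -2.59. That range leaves out the averaging of probe sets, with which Prox1 was too dim to be tested, so it rests on the brightest probe set alone.

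Prox1 is also expressed in liver, heart, lens and brain, which the whole-mouse reference contains. Liver sinusoid markers were called at 0 of 5 genes and summed to 3530.0, 3495 and 2867 in the ureters and 5704 in the reference. Their differences were -2.95 for Clec4g, -2.80 for Clec1b, -0.49 for Fcna, -0.33 for Stab2 and -0.019 for Oit3. These sinusoid markers were not chosen to read hepatocytes, so they do not measure the whole of the liver in the reference. Vtn, a plasma protein gene of hepatocytes, read 148, 159 and 527 against 17968. Markers of heart, lens and brain were not examined. The part of these organs in the Prox1 difference was not tested.

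Neither of the other genes used to recognise lymphatic vessels passed. Lyve1, the hyaluronan receptor of lymphatic capillaries, which some macrophages and liver sinusoids share, read 14271, 14313 and 10974 in the ureters and 11439.8 in the reference. Ureters and reference overlapped (0.19 ± 0.26, adjusted p = 0.710), and the gene was brighter than 93.4% of all genes. A dimmer Lyve1 probe set read 930.5, 1942 and 994 against 1574 (-0.37 ± 0.53), so the sign is not settled. Pdpn, podoplanin, was 3888, 4086 and 3443 against 2678. Every ureter was higher without a call (0.50 ± 0.32, adjusted p = 0.407). Podoplanin is also made by mesothelium and by lung alveolar epithelium. Mesothelial markers were called higher at 2 of 4 genes (summed level 30161, 20395 and 15747 in the ureters and 2214 in the reference), and lung alveolar markers lower at 3 of 6 (summed level 836, 539 and 1047 in the ureters and 35008 in the reference), with Sftpa1 and Scgb1a1 at background in every ureter. Their part in the Pdpn value was not tested.

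Mural cell genes gave 0 calls among the 3 tested. Pdgfrb, the PDGF-B receptor of pericytes and fibroblasts, read 3769.6, 10803 and 7639 in ureter replicates 1, 2 and 3 and 3149 in the reference. All ureters were above the reference, but replicate 1 only slightly so, and the ureters were 2.86-fold apart (1.10 ± 0.58, adjusted p = 0.312). Its second probe set gave 1003, 1947 and 1555 against 356 (1.99 ± 0.50, adjusted p = 0.0736), again lowest in replicate 1. Cspg4, the NG2 proteoglycan of pericytes, was 1144, 2190.0 and 1296 against 1710.2. The reference lay inside the ureter range (-0.21 ± 0.49, adjusted p = 0.845), and a second probe set read 1464, 1497 and 1447 against 1359.

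Abcc9, the SUR2 subunit of the potassium channel that pericytes and smooth muscle use, was higher in every ureter at all 3 of its probe sets, with differences of 0.87 ± 0.37, 1.46 ± 0.37 and 1.00 ± 0.34, none of which passed (adjusted p from 0.0762 to 0.223). The brightest read 7468, 12455 and 12437 in the ureters and 5747 in the reference. Anpep, aminopeptidase N, which pericytes of some organs and kidney tubule cells carry, was too dim to be tested. It exceeded background in replicate 1 only (124, 9.31 and 53.8 against 22.5). Smooth muscle markers were called higher at 7 of 8 genes, and fibroblast markers were called higher at 2 of 7, with summed levels of 322369, 303913 and 313308 in the ureters and 255671 in the reference. What share of the mural signal belongs to muscle or fibroblasts was not tested.

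The spread between ureters was wide for a minority of vessel genes. The ureters were over 2-fold apart for 11 of the 38 (28.9%), against 33.1% of all genes and 24.3% of those bright enough to be tested. The median ureter SD was 0.29, beside 0.37 and 0.32. Replicate 1 was the lowest ureter for 19 of the 38 genes (50%, against 30.5% of all genes and 30.3% of those tested). Vwf, Nos3, Calcrl, Pdgfrb, Fli1, Plvap and Prox1 were among the genes that ran lowest in replicate 1 and highest in replicate 2. Of the 7 nephron and podocyte genes, 6 had the same lowest array, but their highest array varied. Umod read 55.6, 2019 and 961 against 2001, Slc12a1 50.2, 4205 and 711 against 828 and Lrp2 153, 2218 and 1032 against 1181. These and Slc12a3 were highest in replicate 2. Slc34a1 (88.0, 732 and 1182) and Cubn (215, 588 and 710) were highest in replicate 3. Nphs1 was highest in replicate 1 (192, 94.6 and 135). Kidney is rich in capillaries, and the part of kidney RNA in these vessel genes was not tested. For Tek and Sox17 replicate 1 was not the lowest, and their differences in that array alone were 2.13 and 1.40. For Prox1 the difference was -3.65 in replicate 1, -2.41 in replicate 2 and -3.11 in replicate 3. With replicate 1 alone the median difference of the 38 genes was 0.37, beside 0.15 for all genes.

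**Figure D3:**
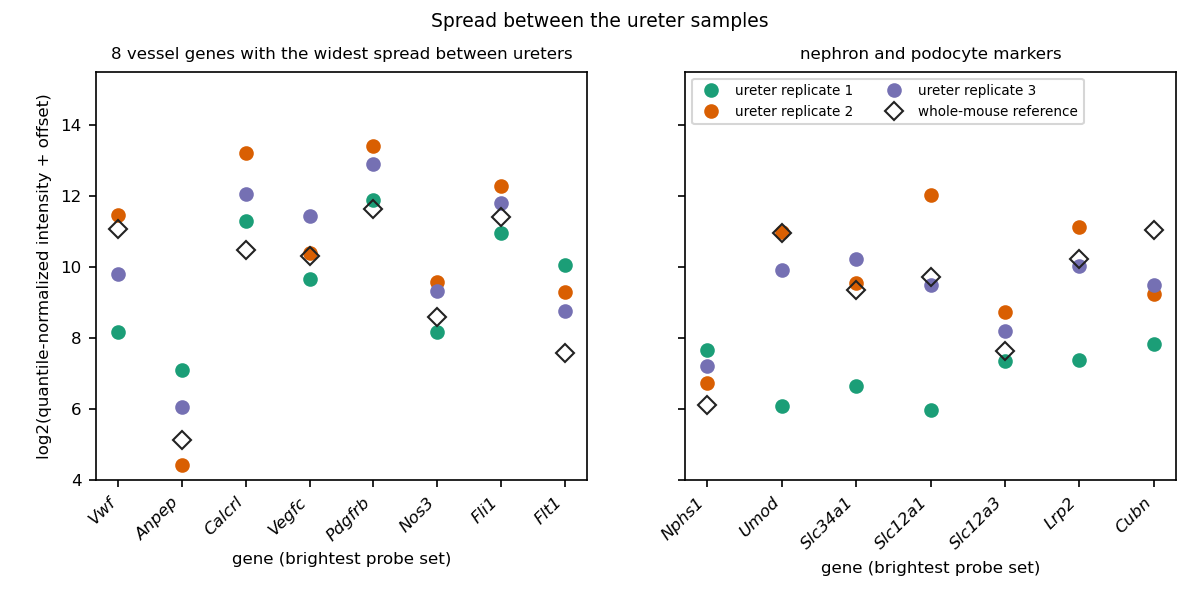
Level on each array, as log2(quantile-normalized intensity + 12.23), of the 8 vessel genes with the widest spread between ureters (left) and of the nephron and podocyte markers (right); filled circles are the 3 ureters and open diamonds the reference. Replicate 1 is lowest for Vwf, Calcrl, Pdgfrb, Nos3, Fli1 and Vegfc on the left and for 6 of 7 genes on the right, whereas Flt1 and Anpep are highest in it.

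Other genes of the same pathways and cell types, taken as 5 whole lists, held further calls. These lists were chosen with earlier results of these data known, so their shares of calls are description and not independent support. Of 81 genes 78 were measured and 73 tested, of which 6 were called higher, 1 lower and 66 did not pass. The shares called were 8.22% and 1.37%, beside 2.94% and 4.77% of all genes tested, and the median difference was 0.45. With limma's unadjusted p under 0.05, 25 of the 73 were higher and 4 lower, where 13.8% and 12.5% of all genes tested were. Counts of calls in single lists below are to be read beside the 2.94% and 4.77% of all genes tested. Vash1, Ccl21a and Ednra were not analysed here.

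Among 14 VEGF and angiogenic genes, 2 were called. Adm, the peptide that activates Calcrl with Ramp2, read 5482, 6121 and 4788 in ureter replicates 1, 2 and 3 and 428 in the reference. All ureters were far brighter than the reference and within 1.28-fold of each other (3.63 ± 0.35, 12.4-fold, adjusted p = 0.00798), and a second probe set gave 3.83 ± 0.45 (adjusted p = 0.0129). The call held under every alternative run, with adjusted p up to 0.0442 without replicate 3. Vegfd, a second ligand of Flt4, gave 7009.8, 7111 and 8815 in the ureters and 1573 in the reference. Its 3 probe sets were all called higher, by 2.26, 2.42 and 2.29 (adjusted p = 0.0174, 0.0147 and 0.0378). Without replicate 3 the brightest lost its call (adjusted p = 0.0955), as it did without the intensity trend (0.0533). Epas1 (-0.11) and Nrp2 (0.20) had the smallest differences.

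The Notch and arteriovenous genes gave 0 calls among 13 tested, where 2.94% and 4.77% of all genes tested were called higher and lower. The median difference of the list was 0.73, with Heyl (0.015) and Notch1 (-0.036) nearest to 0. Of 32 other endothelial genes 1 was called, Procr, the endothelial protein C receptor, at 4583, 4859 and 5075 in the ureters and 1377 in the reference (1.80 ± 0.32, adjusted p = 0.0305). Its ureters did not overlap the reference, and the call ended without replicate 3 (adjusted p = 0.159), with median-centred arrays (0.0533) and without the intensity trend (0.0694). Clec14a (0.0043) and Sele (-0.044) lay closest to the reference. Of 5 lymphatic genes 1 was called, Itga9, an integrin needed for lymphatic valves that smooth muscle also carries, at 4229, 7057 and 5854 in the ureters and 1395 in the reference (1.99 ± 0.39, adjusted p = 0.0405). It lost the call without replicate 3 (adjusted p = 0.172), without the filter (0.0584) and without the intensity trend (0.0908), while Mmrn1 (-0.0079) and Reln (-1.10) did not pass.

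Of 9 other mural genes tested, 2 were called higher and 1 lower. Rgs5, a brake on G protein signalling in pericytes, read 45596, 35878 and 39915 in ureter replicates 1, 2 and 3 and 7253 in the reference. The ureters stood far above the reference with little spread (2.47 ± 0.21, 5.54-fold, adjusted p = 0.00624), and the call held under every alternative run. Itga8, an integrin of smooth muscle and mesangial cells, gave 7667, 10346 and 9377 in the ureters and 2487 in the reference (1.86 ± 0.30, adjusted p = 0.0253), a call that ended without replicate 3 (0.132) and without the intensity trend (0.0780). Vtn, vitronectin, which brain pericytes and hepatocytes make, was called lower under every alternative run (-6.19 ± 0.76, adjusted p = 0.0142). Notch3, the mural Notch receptor (0.42), did not pass, and Ndufa4l2 (0.096) was too dim to be tested.

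**Figure D4:**
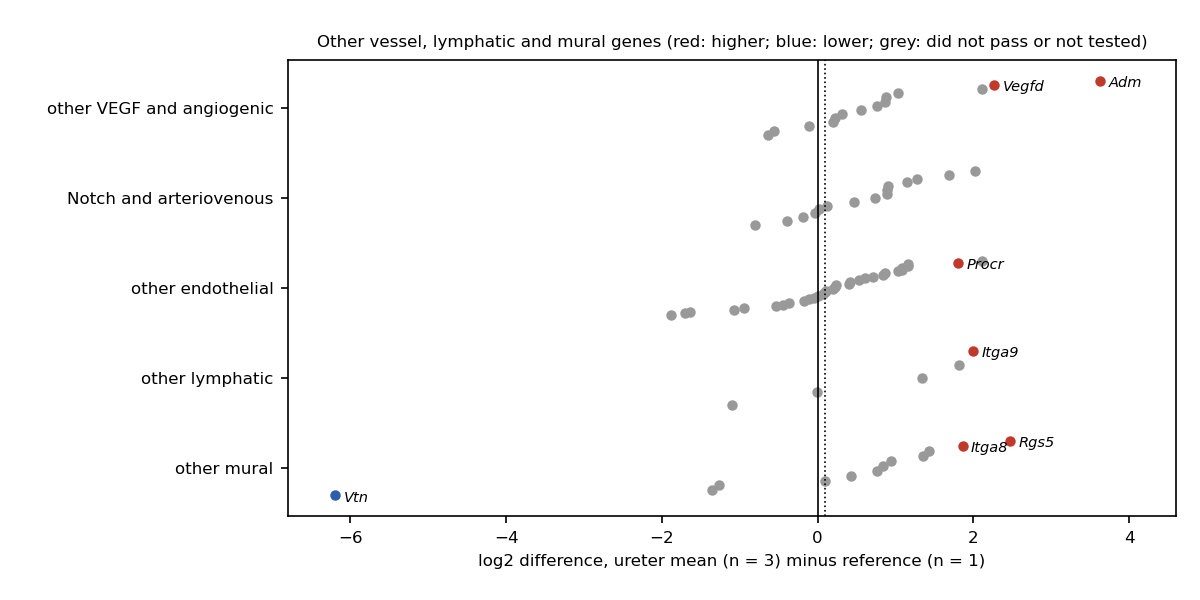
Log2 difference, ureter mean (n = 3) minus reference (n = 1), of the 78 other vessel, lymphatic and mural genes measured, 1 point per gene in 5 lists (rows, ordered by value within a row); the dotted line is the median of all genes tested. The 6 named red points, with Adm at 3.63 farthest right, were called higher, and Vtn at -6.19 was called lower.

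The calls among the 38 genes rest on few arrays. Leaving out ureter replicate 3 took the calls from 3 to 0, whereas leaving out replicate 2 kept all 3 and leaving out replicate 1 kept Tek and Prox1. Over all probe sets, the calls without replicate 3 were 48 higher and 269 lower, against 725 and 942 with all arrays. Each of Tek, Sox17 and Prox1 kept its sign under every alternative that tested it.

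**Figure D5:**
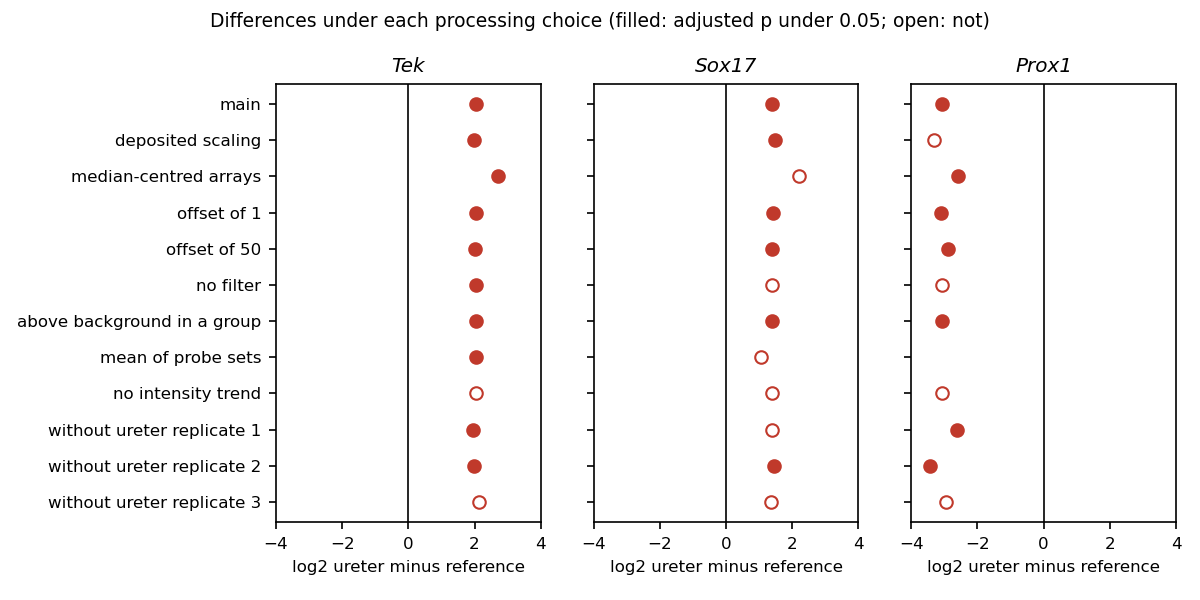
Log2 difference, ureters minus reference, of Tek, Sox17 and Prox1 under each processing choice (rows); filled circles passed an adjusted p of 0.05 and open circles did not. No point changes side of 0, and all 3 genes are open without ureter replicate 3 and without the intensity trend; Prox1 was too dim to be tested when its probe sets were averaged.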

How the data were processed

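Per the submitters' processing notes, intensities were produced with GCOS, the array maker's software, and the values the authors deposited are linear intensities, 1 per probe set and array. Their mean after trimming 2% at each end was 1500 on all 4 arrays, while the median log2 intensity spanned 1.11, so arrays were quantile normalized here. Any background correction made by the authors is not stated. The analysis used log2(intensity + 12.23), with an offset equal to the 10th percentile of the deposited intensities. Of 45101 probe sets, 64 controls and then the dimmest 40% (by the mean of the group means) were left out, leaving 27022.

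Ureters (n = 3) were compared with the reference (n = 1) by limma 3.58.1 (R 4.3.3; lmFit, eBayes with an intensity trend, two-sided, Benjamini-Hochberg over all probe sets tested, threshold 0.05), with 2 residual degrees of freedom. The script was tested on simulated data. Each gene stands by its brightest probe set carrying 1 symbol in GEO's platform annotation, and RefSeq identifiers matched for 38 of 38 genes. Background is the highest of 27 bacterial control probe sets on each array. "At least" folds compare the brighter group's mean with the higher of background and the dim value. The number of arrays limits the precision.

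All 38 genes may be named, with every array's value for called genes and for Pecam1, Cdh5, Kdr, Tek, Prox1, Lyve1, Pdgfrb and Cspg4. Of the other lists, called genes and up to 2 per list with the smallest difference are named. Thbs1, Hey2 and Heg1, outside this rule, were named after their values were seen. Marker genes were to be named only where at background. The nephron, podocyte, platelet and liver sinusoid genes given by value or direction were likewise named after their values were seen. Genes and lists were chosen with earlier results of these data known. Alternatives covered scaling, offset, filter, probe sets, the variance prior and each left-out ureter.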

Additional observations from a re-analysis of the deposited data

How the results depend on the processing

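No paired analysis was possible because the reference has 1 array and shares no numbered samples with the ureters. The count of vessel genes called higher (2) became 1 with median-centred arrays, 1 with no filter and 0 with no intensity trend, and 0 to 2 when a ureter was left out. The count called lower (1) became 0 as deposited, 0 with no filter, 0 with probe sets averaged and 0 with no intensity trend, and 0 to 1 with a ureter left out. By limma at an unadjusted p under 0.05, 7 were higher and 1 lower with all arrays. The median difference (0.48) became 0.31 as deposited, 1.04 with median-centred arrays, 0.38 to 0.54 with a ureter left out and 0.37 with replicate 1 alone, an alternative chosen after seeing the data. The other vessel genes called higher (6) became 12 with probe sets averaged, 2 with no intensity trend and 2 to 8 with a ureter left out, and 1 was called lower under every alternative. The causes of these changes were not tested. Calls over all probe sets were 725 higher and 942 lower, 444 and 882 as deposited, 269 and 635 with no intensity trend and 401 and 674 with no filter. Tie1 passed in the fit with probe sets averaged (adjusted p = 0.0479). It has 1 probe set, so its difference stayed at 1.74, and that fit tested 10916 genes in place of 27022 probe sets. No called vessel gene changed sign under the alternatives that tested it. A gene at background, such as Anpep, has no measured difference at this signal.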

Other observations

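Several dimmer probe sets of vessel genes separated the ureter samples. A Flt1 probe set too dim to be tested read 37.9, 1106 and 422 against 45.3 in the reference, at background in replicate 1 and in the reference, and an untested Erg probe set read 9.96, 314 and 33.4 against 9.89, above background in replicate 2 only. A Fli1 probe set that was tested (adjusted p = 0.449) read 83.8, 888 and 320.2 against 82.7, with the same order of ureters as its brighter partner. A Calcrl probe set that was tested (adjusted p = 0.488) read 91.3, 430.2 and 265 against 89.7, also highest in replicate 2. Both were at background in replicate 1 and in the reference. These values were picked after they were seen and carry no test of the difference between ureters.

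Some genes of the other vessel lists, outside the 38, also differed between ureters. Thbs1, an inhibitor of angiogenesis, read 1110.1, 7689 and 1654 against 1949, and Hey2, an arterial Notch target, 110.3, 653 and 157 against 302. Heg1, a receptor of endothelial junctions, read 9.5, 216 and 377 against 375, at background in replicate 1. These too were picked after their values were seen.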
